A study of Mus musculus with 16 samples.

Results

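The cytosolic Hsp70 and Hsp110 chaperone genes were read as 7 gene symbols among the 23356 in the tables: Hspa1a, Hspa1b, Hspa8 and Hspa2 of the Hsp70 family, and Hsph1, Hspa4 and Hspa4l of the Hsp110 family. They were chosen by symbol, and 3 of them (Hspa1a, Hspa1b, Hsph1) were treated as stress-inducible and 4 (Hspa8, Hspa2, Hspa4, Hspa4l) as constitutive, following their textbook classes. The cells were NIH3T3, an established mouse embryonic fibroblast line, and all groups carried the same stably introduced fusion of a destabilizing domain (DD) and superfolder GFP. The DD is a mutant FKBP12 that folds when bound by the small molecule Shield-1. Cells with high fluorescence had been sorted as a pool, and the sources used here do not say that they were 1 clone. Per the study, Shield-1 was kept in the medium except when withdrawn as a stress, which is not restated for the drug treatment. The 4 groups were the unstressed control at 0 min and cells collected 45, 135 and 405 min into treatment with bortezomib, an inhibitor of the proteasome, and each group had 4 replicate libraries of RNA sequencing, 16 in all. The only control was at 0 min, so that time in culture and treatment cannot be told apart, and the dose was not given in the sources used here.

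Hsp70 proteins bind short hydrophobic stretches of unfolded polypeptides and release them in a cycle driven by ATP. J-domain proteins deliver clients and stimulate hydrolysis, and nucleotide exchange factors, among them the Hsp110 proteins, reset the cycle by releasing ADP. Hspa8 (Hsc70) is the abundant housekeeping form, whereas Hspa1a and Hspa1b encode nearly identical proteins whose transcription is switched on by heat shock factor 1 when unfolded protein accumulates. Blocking the proteasome is a known way to raise that load, because proteins marked for degradation are no longer removed.

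The libraries differed widely from each other in ways that their groups did not explain. Total fragments ran from 570323 to 19930375 per library. In 7 libraries the ribosomal protein genes took 4.25% to 9.42% of all fragments, and in the other 9 they took 0.398% to 1.21%, the boundary being set at 4%. The 7 libraries above 4% were replicates 1 and 2 at 45 min, replicates 1 and 2 at 135 min, and replicates 1, 3 and 4 at 405 min, and no control was among them. The 9 libraries at or below 4% were the 4 controls, replicates 3 and 4 at 45 min and at 135 min, and replicate 2 at 405 min. Summed levels of 8 fibroblast markers were 3355 to 19427 fragments per 1000000 (CPM) above 4% and 240.5 to 1522 CPM at or below it, and 6 of the 8 were detected in every library at or below it. Summed levels of 7 markers of leukocytes, epithelium, endothelium and hepatocytes were 0 to 85.2 CPM above 4% and 197 to 377 CPM at or below it, and none of the 7 was at 0 throughout either class. Olfactory and vomeronasal receptor genes, which fibroblasts are not known to use, took 4.16% to 5.13% of fragments at or below 4% and 0.0056% to 2.62% above it. The value of 2.62% was in replicate 3 at 405 min. That library also had the lowest ribosomal protein share (4.25%) and the fewest fragments (1385229) of those above 4%. In the controls, the 7 markers of other cell types had medians from 15.4 CPM for Cd68 to 57.6 CPM for Cdh5, with the epithelial marker Cdh1 at 31.6 to 54.3 CPM, so control values of members at such levels are within the range of genes that this line should lack. The part of these differences in the chaperone results was not tested, so the members are given over all libraries and within each class. In the comparisons with control over all libraries, treatment and library class cannot be told apart.

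Hspa1a and Hspa1b, the heat-inducible pair, lie next to each other. On the NCBIM37 assembly both are on the minus strand of chromosome 17, Hspa1b at 35093381 to 35096183 and Hspa1a at 35106144 to 35109069, with 9.96 kb between them. Their coding sequences were identical at 1918 of 1926 aligned bases (99.6%), and of all 50-base windows of the transcripts 59.4% of those of Hspa1a and 62.1% of those of Hspa1b occurred in both. Fragments can be told apart only where the copies differ, and how shared ones were counted was not given in the sources used here, so the value of either gene alone is uncertain. No 50-base window was shared by any other pair of the 7 genes, and Hspa8 was 74.5% identical to Hspa1a over the coding sequence.

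The start regions are shown for the letters of the heat shock element, the repeated GAA and TTC units that heat shock factor 1 binds. RefSeq windows on GRCm38.p6 were given for 6 of the 7 genes (not Hspa8), each with 250 bases before and 50 bases from the start of transcription, written on the coding strand. Capitals mark every match to GAANNTTC or TTCNNGAA, which read the same on both strands, and to the 13-letter forms in which 1 further unit follows either motif after any 2 bases, so that each 13-letter match contains both 8-letter motifs.
Hspa1a (chr17:34972107-34972406, minus strand): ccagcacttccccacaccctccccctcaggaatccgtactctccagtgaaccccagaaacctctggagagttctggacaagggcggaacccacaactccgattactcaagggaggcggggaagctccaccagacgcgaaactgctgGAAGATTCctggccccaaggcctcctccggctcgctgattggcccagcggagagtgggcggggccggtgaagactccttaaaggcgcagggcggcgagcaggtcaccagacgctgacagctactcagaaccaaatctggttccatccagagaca
Hspa1b (chr17:34959189-34959488, minus strand): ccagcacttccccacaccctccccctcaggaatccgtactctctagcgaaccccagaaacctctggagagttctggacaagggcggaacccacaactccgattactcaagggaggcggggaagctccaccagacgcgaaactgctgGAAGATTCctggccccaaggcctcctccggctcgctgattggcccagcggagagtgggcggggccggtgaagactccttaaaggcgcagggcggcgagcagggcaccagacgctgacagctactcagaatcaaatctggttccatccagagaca
Hsph1 (chr5:149636287-149636586, minus strand): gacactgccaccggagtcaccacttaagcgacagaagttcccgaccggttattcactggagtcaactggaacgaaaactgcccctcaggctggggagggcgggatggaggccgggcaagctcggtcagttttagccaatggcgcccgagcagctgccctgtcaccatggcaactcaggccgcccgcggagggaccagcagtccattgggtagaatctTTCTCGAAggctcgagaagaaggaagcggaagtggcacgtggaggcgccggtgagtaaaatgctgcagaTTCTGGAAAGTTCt
Hspa4 (chr11:53300430-53300729, minus strand): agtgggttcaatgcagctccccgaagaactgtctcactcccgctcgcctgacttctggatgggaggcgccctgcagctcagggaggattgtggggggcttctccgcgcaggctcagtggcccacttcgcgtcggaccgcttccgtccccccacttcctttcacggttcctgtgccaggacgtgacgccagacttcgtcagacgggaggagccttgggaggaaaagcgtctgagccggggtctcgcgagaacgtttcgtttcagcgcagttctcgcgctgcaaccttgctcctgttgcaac
Hspa1a and Hspa1b carried 1 match each, GAAGATTC, at the same place 104 bases upstream of the start. Their windows differed at 4 of 300 positions, none inside the match, counted from 1 at the 5′ end with the base of Hspa1a first: C44T, T47C, T249G and C276T. Hsph1 held TTCTCGAA 33 bases upstream and the 13-letter TTCTGGAAAGTTC 37 bases downstream of the first of its 2 annotated starts. Hspa4, shown above, and the windows of Hspa4l and Hspa2 held no match. Among all 27025 genes with a window, 17.0% had either 8-letter motif and 0.662% had either 13-letter motif. Most genes therefore had no match, and whether the 2 classes of members differ was not tested. A match describes the letters only, and their absence says nothing about binding elsewhere.

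The share of fragments taken by the 7 genes together differed by time and by library class. In the 4 controls they accounted for 0.0330% to 0.0417% of fragments. At 45 min the share was 0.602% and 0.235% in the libraries above 4% and 0.0334% and 0.0338% in the others. At 135 min it was 0.478% and 0.665% above 4% and 0.0470% and 0.0520% in the others. At 405 min the libraries above 4% reached 3.38%, 1.33% and 3.05%, and the remaining library had 0.240% (95% Wilson interval 0.229% to 0.251%, counting error only). Within each class the 405 min libraries therefore stood above every earlier library and, at or below 4%, above every control. In bulk RNA, a change in the number of cells and a change in RNA per cell cannot be told apart. Hspa8 supplied the largest part of this share in replicates 1 and 4 at 405 min, and Hspa1b did in replicates 2 and 3.

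**Figure D1:**
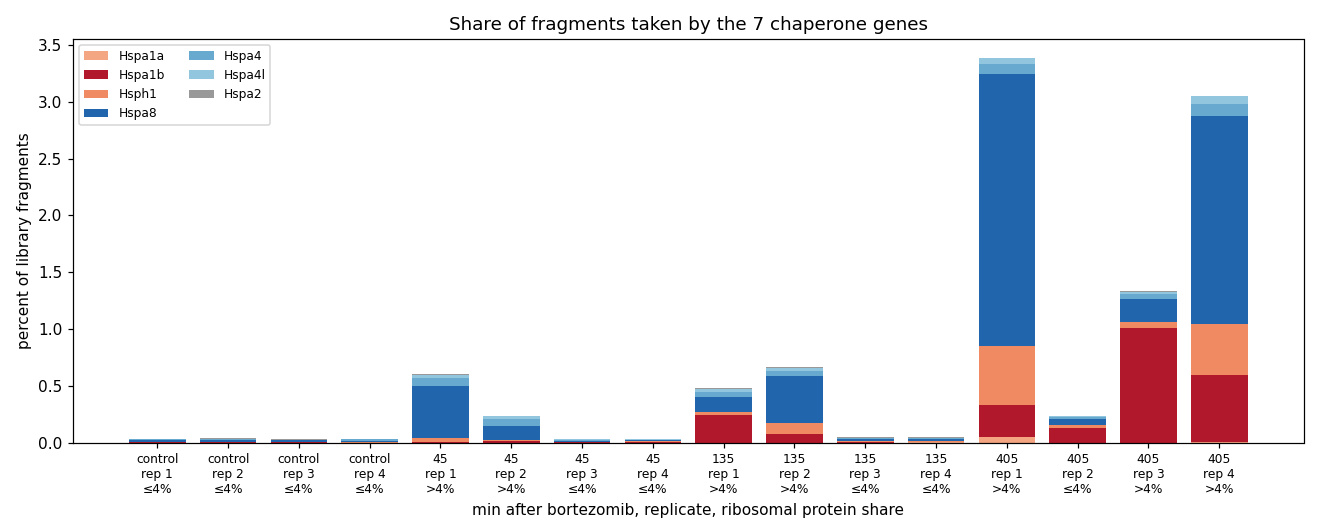
Share of all fragments (percent, vertical axis) taken by the 7 chaperone genes in each of the 16 libraries, stacked by gene, with the ribosomal protein class of each library under its name. The 4 controls stay at or below 0.0417%, and replicates 1 and 4 at 405 min reach 3.38% and 3.05%.

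Hspa1b, the inducible Hsp70, had the largest fitted difference of the tested members at 405 min. Its control libraries held 24.9, 48.8, 37.0 and 19.7 CPM, within the range of the markers of other cell types. Its folds over control therefore rest on control values at the level of genes that this line should lack. At 45 min the 4 libraries held 71.6 and 163 CPM above 4% and 12.9 and 52.9 CPM in the others. At 135 min they held 2427 and 770 CPM above 4% and 42.1 and 51.1 CPM in the others. At 405 min all 4 libraries were far above every control, with 2834, 1292, 10097 and 5899 CPM in replicates 1 to 4. The order of the class above 4% was the same at each step: both 135 min libraries lay above both 45 min libraries, and the 3 at 405 min lay above both at 135 min. In the other class the 45 and 135 min libraries lay between 12.9 and 52.9 CPM, around the control range, and replicate 2 at 405 min stood at 994 fragments against 17 to 42 in the controls.

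That last contrast passed the threshold over all genes, but with 1 treated library, so that no spread among 405 min libraries stands behind its p-value. In the 9 libraries at or below 4%, Hspa1b was 39.7-fold higher in replicate 2 at 405 min than in the 4 controls (log2 fold change 5.31 ± 0.54 SE, adjusted p = 0.000429, edgeR's quasi-likelihood test with Benjamini-Hochberg adjustment). It was 1 of 6 members tested, where 2 of 8366 genes passed (0.0239%), and the value stayed between 5.13 and 5.59 when each control was left out. The single 405 min library was assumed to vary like the other groups and could not itself be left out. The only other gene called, named after its values were seen, was Hsp90aa1, the inducible cytosolic Hsp90, which held 84.4 to 443 CPM in the controls and 2445 CPM in the same single library (log2 fold change 3.37, adjusted p = 0.0257, edgeR's quasi-likelihood test). That call was lost without control replicate 1 (adjusted p = 0.395) or control replicate 3 (adjusted p = 0.137), and under other filters on low counts (adjusted p = 0.0773 with none and 0.162 with filterByExpr, edgeR's quasi-likelihood test).

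Over all 16 libraries Hspa1b was 197-fold higher at 405 min than in control (log2 fold change 7.62 ± 1.73 SE, n = 4 against 4), with an adjusted p of 0.285 by edgeR's quasi-likelihood test. At 135 min the log2 difference was 5.09 ± 1.54 and at 45 min 1.62 ± 1.34, with adjusted p values of 0.513 and 0.618 in the same edgeR fit. Within the libraries above 4% it was 5.74 ± 1.27 between 405 and 45 min and 3.73 ± 1.17 between 135 and 45 min, and neither passed (adjusted p = 0.672 and 0.997, edgeR's quasi-likelihood test). Between 405 and 135 min in that class it was 2.003 ± 1.04 (adjusted p = 0.909, edgeR's quasi-likelihood test). Without replicate 1 at 135 min the all-library difference of 135 min from control was 3.40, and without replicate 2 at 45 min that of 45 min was 0.65.

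**Figure D2:**
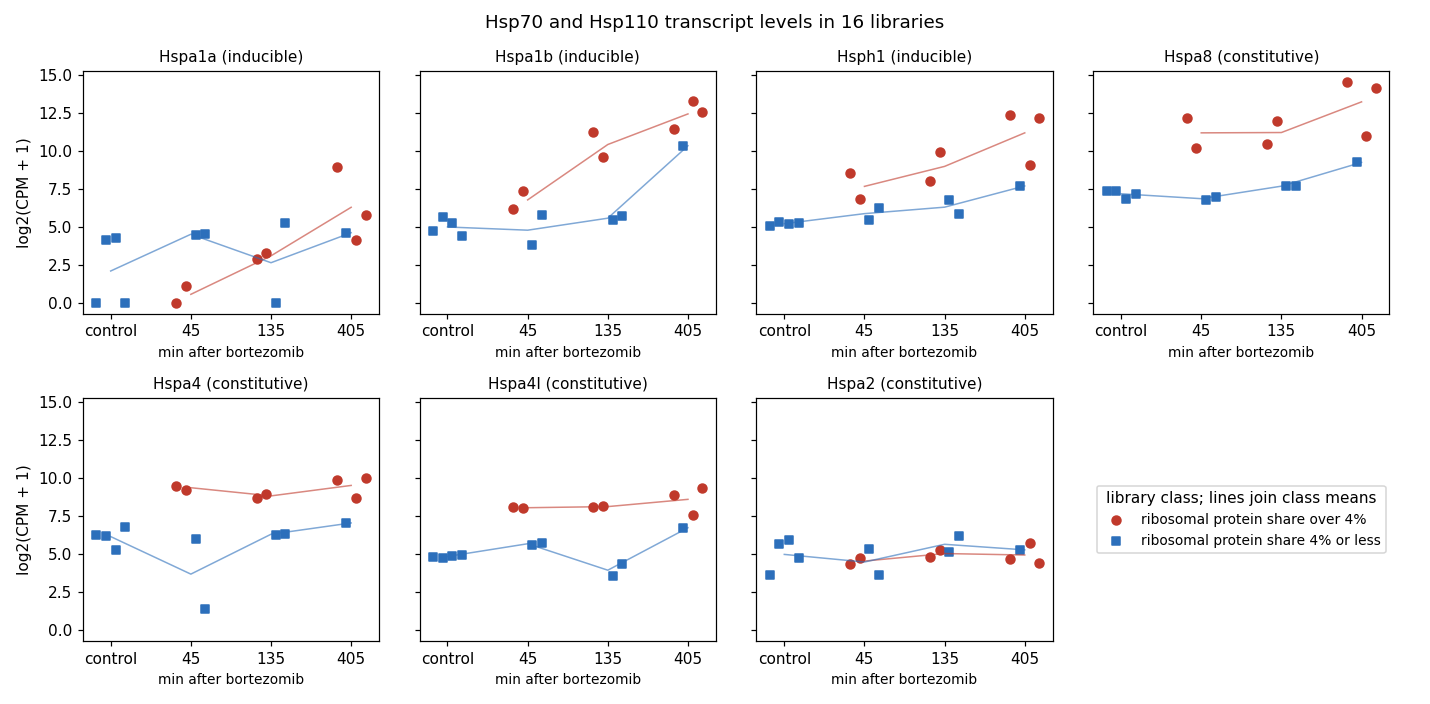
Level of each of the 7 genes as log2(CPM + 1) in every library (vertical axes) by time in bortezomib (horizontal axes, min). Red circles are libraries with a ribosomal protein share above 4%, blue squares those at or below it, and lines join the class means. Hspa1b climbs at every step in the red class and only at 405 min in the blue class, whereas Hspa2 stays level in both.

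Hspa1a, its near-identical neighbour, was scarce in most libraries. The controls held 0, 14, 16 and 0 fragments, where a count of 0 allows up to 3 fragments. At 45 min there were 0, 7, 31 and 14 fragments, and at 135 min 20, 41, 0 and 33. At 405 min there were 7498 fragments in replicate 1 and 1063 in replicate 4, but 18 and 23 in replicates 2 and 3, close to the controls. As CPM, replicate 1 held 493, replicate 4 held 53.3, and the other 2 held 23.4 and 16.6, against 0 to 17.95 in the controls, so that the 405 min and control ranges overlapped. Of all fragments given to the pair, Hspa1a received 14.8% in replicate 1 at 405 min and 0% to 1.14% in the other libraries above 4%. In the libraries at or below 4% that share ran from 0% to 62.0%, and it was 1.78% in replicate 2 at 405 min.

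Hspa1a had no fragment in 4 libraries and so left the main fit, and was read from a fit without the filter. There it differed between 405 and 45 min above 4% by 8.30 ± 1.16 on the log2 scale (adjusted p = 4.22e-09, edgeR's quasi-likelihood test, 22279 genes) and between 405 and 135 min by 4.50 ± 0.94 (adjusted p = 0.00669, same test). In this unfiltered edgeR fit 10 genes (0.0449%) were called higher in the first contrast and 4 (0.0180%) in the second. Both calls rested on replicate 1 at 405 min, without which the differences were 6.09 (adjusted p = 0.736, edgeR's quasi-likelihood test) and 2.49 (adjusted p = 1, same test). The first was also lost without replicate 1 at 45 min (7.27, adjusted p = 0.732, edgeR's quasi-likelihood test), and the second without replicate 1 at 135 min (4.396, adjusted p = 1, same test). Against control over all libraries the difference at 405 min was 5.76 ± 1.80 (adjusted p = 0.418, edgeR's quasi-likelihood test).

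Hsph1 (Hsp105), the inducible Hsp110 and an exchange factor for Hsp70, held 31.6, 39.5, 35.9 and 37.0 CPM in the controls, within the range of those markers. At 45 min it held 366 and 110 CPM above 4% and 43.5 and 75.3 CPM in the others. At 135 min it held 258 and 980 CPM above 4% and 105 and 56.8 CPM in the others. All 8 of these libraries lay above all 4 controls. At 405 min replicates 1 and 4 reached 5159 and 4509 CPM, replicate 3 held 541 CPM and replicate 2 held 205 CPM, and again no library overlapped the controls. Over all libraries the fitted log2 differences of 45, 135 and 405 min from control were 2.42 ± 1.23, 3.46 ± 1.28 and 6.60 ± 1.48, with adjusted p values of 0.403, 0.513 and 0.285 (edgeR's quasi-likelihood test). Above 4%, 405 min exceeded 45 min by 3.89 ± 1.25 on the log2 scale (adjusted p = 0.69, edgeR's quasi-likelihood test), and at or below 4% it exceeded control by 2.52 ± 0.55 (adjusted p = 0.644, same test).

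Among the constitutive members, Hspa8, the housekeeping Hsp70, was far above its control levels in all 7 libraries above 4%. The controls held 160, 165, 113 and 141 CPM. At 45 min it held 4572 and 1185 CPM above 4% and 107 and 122 CPM in the others, the latter at the lower edge of the control range. At 135 min it held 1369 and 4077 CPM above 4% and 203 CPM in both others. At 405 min replicates 1 and 4 held 23933 and 18317 CPM, replicate 3 held 2008 CPM and replicate 2 held 604 CPM. The 405 min libraries thus lay above all controls, but within the class above 4% replicate 3 at 405 min fell between the 2 libraries of 45 min. Replicate 3 was the library of that class nearest the 4% boundary, and replicates 1 and 4 lay above both libraries of 45 min. The log2 difference from control at 405 min was 6.69 ± 1.96 over all libraries (adjusted p = 0.285, edgeR's quasi-likelihood test) and 2.07 ± 0.37 at or below 4% (adjusted p = 0.128, same test). Above 4% the difference of 405 from 45 min was 2.40 ± 1.30 (adjusted p = 0.692, edgeR's quasi-likelihood test).

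Hspa4 (Apg-2) and Hspa4l (Apg-1), the constitutive Hsp110 members, separated by library class more than by time. Hspa4 held 38.1 to 111 CPM in the controls. Its treated libraries at or below 4% held 61.9 and 1.60 CPM at 45 min, 75.4 and 80.6 CPM at 135 min, and 131 CPM at 405 min, and the value of 1.60 CPM was a single fragment. Above 4% it held 715 and 607 CPM at 45 min, 417 and 493 CPM at 135 min, and 924, 407 and 1043 CPM at 405 min. The range of 405 min overlapped those of both earlier times, through replicate 3 (407 CPM), the library nearest the boundary. The fitted log2 difference of 405 from 45 min there was 0.29 ± 0.70, that of 405 min from control was 0.82 ± 0.92 at or below 4%, and over all libraries it was 3.47 ± 1.32.

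Hspa4l held 25.5 to 30.1 CPM in the controls, within the range of the markers of other cell types. Above 4% it held 255 to 282 CPM in the 4 libraries of 45 and 135 min, and 472, 186 and 661 CPM at 405 min. At or below 4% it held 47.6 and 52.9 CPM at 45 min, 10.5 and 19.3 CPM at 135 min, and 105 CPM at 405 min. The 135 min values of that class rested on 6 and 17 fragments. The log2 difference of 405 min from control was 4.10 ± 1.15 over all libraries and 1.93 ± 0.69 at or below 4%, and that of 405 from 45 min above 4% was 0.79 ± 0.71.

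Hspa2, known for its role in male germ cells, kept to one range of levels in both classes. Its controls held 11.3 to 59.5 CPM, within the range of the markers of other cell types, and the 12 treated libraries held 11.2 to 71.5 CPM. The libraries above 4% held 19.3 to 52.7 CPM. All treated ranges overlapped the control range, and the log2 difference of 405 min from control was 0.14 ± 0.59 over all libraries and 0.07 ± 1.002 at or below 4%. Its sign at 405 min changed with single libraries left out, from -0.28 to 0.47 over all libraries.

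Read together over all libraries, no member was called at any time against control by edgeR's quasi-likelihood test, where 0% of the 5030 genes tested were called at 45, 135 and 405 min alike. The 6 members tested are those with at least 1 fragment in every library. At 405 min 5 of the 6 exceeded control with an unadjusted p under 0.05, where 14.5% of all genes did, and the same 5 had every 405 min library above every control, where 6.86% of all genes did. DESeq2 called these 5 higher, where it called 6.98% of genes. At 135 min 3 of 6 had an unadjusted p under 0.05 in the higher direction (7.83% of genes) and DESeq2 called Hspa1b alone (0.159% of genes), and Hsph1 and Hspa8 had every library above every control (2.47% of genes). At 45 min 2 of 6, Hspa8 and Hspa4l, had an unadjusted p under 0.05 in the higher direction (12.1% of genes, edgeR's quasi-likelihood test). DESeq2 called the same 2 (4.45% of genes), while Hsph1 and Hspa4l had every library above every control (1.37% of genes). The members' median log2 difference from control was 2.55, 3.09 and 5.35 at 45, 135 and 405 min, beside medians of 0.14, 0.16 and 0.11 over all genes tested. Since no control had a ribosomal protein share above 4%, these counts describe treatment and library class together.

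Within the libraries above 4%, where all groups are treated, edgeR's quasi-likelihood test called no member in any of the 3 contrasts between times (0% of 8605 genes in each). Between 405 and 45 min Hspa1b and Hsph1, 2 of 6 members, had an unadjusted p under 0.05 in the higher direction (3.01% of genes), and DESeq2 called both (0.476% of genes). The same pair had all 3 libraries of 405 min above both of 45 min, where 9.24% of genes did. Between 135 and 45 min Hspa1b alone had an unadjusted p under 0.05 (1.28% of genes), and DESeq2 called it (0.0349% of genes). Hspa1b, Hspa4l and Hspa2 had both libraries of 135 min above both of 45 min, where 19.8% of genes did. Between 405 and 135 min Hsph1 alone had an unadjusted p under 0.05 (1.46% of genes, edgeR's quasi-likelihood test), and DESeq2 called none (0% of genes). Hspa1b alone had all libraries of 405 min above both of 135 min, where 4.78% of genes did. At or below 4%, where 405 min is 1 library and lends no spread of its own to the test, 4 of 6 members exceeded control at 405 min with an unadjusted p under 0.05, where 0.215% of genes did, and DESeq2 called Hspa1b and Hspa8 (0.0359% of genes). No member was called at 45 or 135 min in that class by edgeR's quasi-likelihood test (0% of 8366 genes at both times), and none was higher with an unadjusted p under 0.05 (0.669% and 4.40% of genes). DESeq2 called no member at 45 min, where it called 0 genes, or at 135 min, where it called 12 genes higher and 111 lower.

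**Figure D3:**
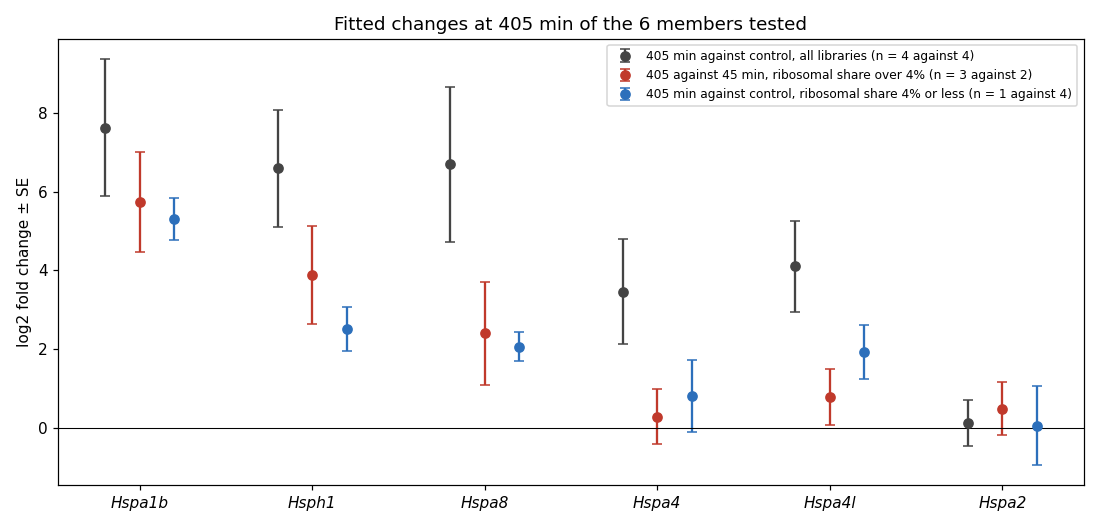
Fitted log2 fold change ± SE (vertical axis) of the 6 tested genes at 405 min, against control over all libraries (black), against 45 min above a 4% ribosomal protein share (red) and against control at or below it (blue). Hspa1b is highest in each of the 3 comparisons, at 7.62, 5.74 and 5.31, and Hspa2 lies near 0.

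The inducible and constitutive members were set side by side within each library, where the ratio of their fragments does not depend on scaling. The summed inducible fragments (Hspa1a, Hspa1b, Hsph1) were 0.184 to 0.380 times the summed constitutive ones (Hspa8, Hspa2, Hspa4, Hspa4l) in the controls. Above 4% the libraries of 45 min gave 0.0785 and 0.132, those of 135 min 1.29 and 0.360, and replicates 1, 3 and 4 of 405 min 0.335, 4.01 and 0.522. Every later library of that class thus exceeded both of 45 min, while the 135 and 405 min ranges overlapped. At or below 4% the libraries of 45 min gave 0.302 and 0.803, those of 135 min 0.457 and 0.388, and that of 405 min 1.73. Replicate 1 at 405 min, at 0.335, lay inside the control range, so the ratio did not separate 405 min from control. The mean log2 ratio was -1.93 ± 0.52 (SD, n = 4) in control and 0.07 ± 1.63 (SD, n = 4) at 405 min.

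Hspa1a and Hspa1b together were 0.139 to 0.485 times Hspa8 in the controls. At 405 min replicates 1 and 4, sequenced to 15213857 and 19930375 fragments, gave 0.139 and 0.325, within the control range. Replicates 2 and 3 at 405 min, with 769641 and 1385229 fragments, gave 2.18 and 5.04, above all controls. Depth moved with this difference, and its part was not tested. Hsph1 over Hspa4, the inducible against the constitutive Hsp110, was 0.333 to 0.941 in the controls and 5.59, 1.56, 1.33 and 4.32 in replicates 1 to 4 at 405 min, above every control in all 4 libraries. How many other gene pairs separate in this way was not counted. Control Hsph1 lay within the range of the markers of other cell types, so the control ratio is uncertain. No control was above 4%, so over all libraries treatment and library class cannot be told apart in these ratios. In replicates 1 to 4 it was 0.618, 1.99, 1.40 and 0.704 at 135 min, so replicates 2 and 3 there also exceeded every control. At 45 min it was 0.512, 0.182, 0.703 and 47.0, the last on a single Hspa4 fragment.

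**Figure D4:**
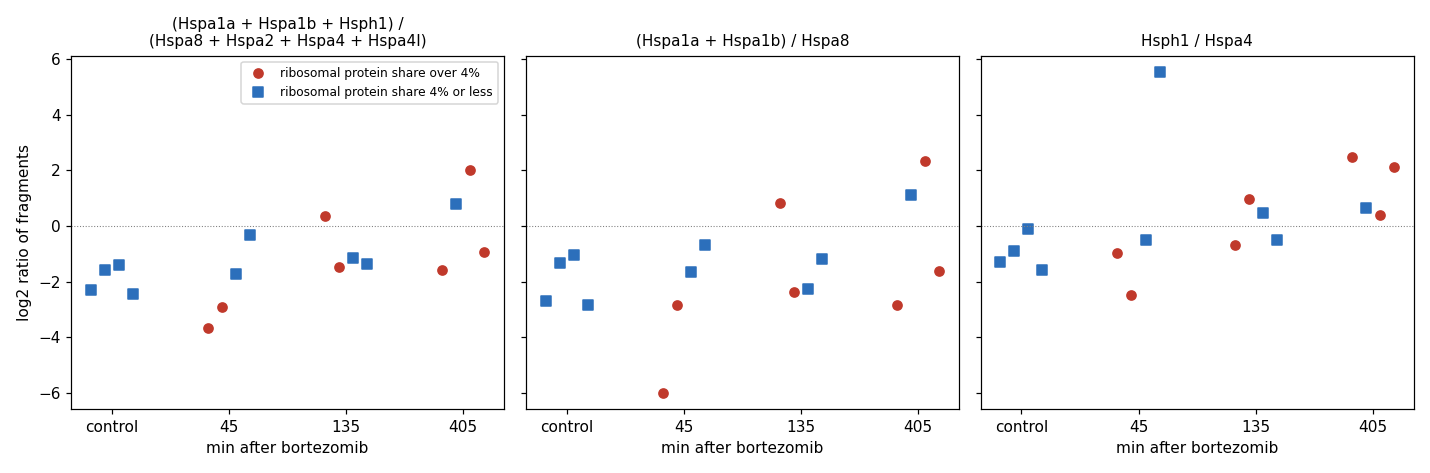
Log2 ratio of inducible to constitutive fragments in each library (vertical axis) by time in bortezomib (horizontal axis, min), for all 7 genes, for Hspa1a and Hspa1b over Hspa8, and for Hsph1 over Hspa4. Red circles are libraries above a 4% ribosomal protein share and blue squares the others. At 405 min the first 2 ratios reach into the control range and the third does not, and the point near 5.56 in the third panel rests on a single Hspa4 fragment.

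Levels of different genes were compared on the deposited FPKM, which is scaled by transcript length. It did not keep 1 proportion to CPM between libraries. Hspa1b had 2084 FPKM at 2427 CPM in replicate 1 at 135 min, and 716 FPKM at 2834 CPM in replicate 1 at 405 min. In the controls Hspa8 led with 50.04 to 77.8 FPKM, above the range of every other member. Hspa4 (7.19 to 21.1 FPKM), Hspa2 (4.73 to 21.1 FPKM), Hspa1b (6.36 to 15.5 FPKM) and Hsph1 (9.18 to 9.97 FPKM) followed with ranges that overlapped from one to the next, and Hspa4l (6.30 to 7.80 FPKM) lay below Hsph1. Hspa1a, listed at 0 in 2 controls, was lowest with at most 5.80 FPKM. Except for Hspa8 and Hspa4, the members had control CPM within the range of the markers of other cell types, so their order there is uncertain. At 405 min above 4% the order by median was Hspa8, Hspa1b, Hsph1, Hspa4, Hspa4l, Hspa1a and Hspa2, with each range overlapping the next. Hspa1b there held 716 to 3358 FPKM and Hspa8 917 to 11707 FPKM. In replicate 2 at 405 min Hspa1b, at 418 FPKM, stood above Hspa8, at 268 FPKM.

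The partners of the Hsp70 cycle were read from a list of 17 genes, of which 9 were tested over all libraries. None was called at 405 min against control by edgeR's quasi-likelihood test. An unadjusted p under 0.05 was reached in the higher direction by 6 of them (14.5% of all genes) and in the lower direction by 1 (1.51% of all genes), and the list's median log2 difference was 2.34. Stip1, the Hop adaptor between Hsp70 and Hsp90, differed by 5.42 ± 1.51 over all libraries, but by 1.30 ± 1.27 between 405 and 45 min above 4% and by 0.99 ± 0.89 from control at or below it. The J-domain proteins Dnaja1 and Dnajb1 differed by 3.86 ± 1.39 and 3.36 ± 0.83, the exchange factors Bag3 and Bag1 by 2.76 ± 0.76 and 2.34 ± 1.07, and Hsf2 by 1.68 ± 0.64 over all libraries. Above 4% the differences of 405 from 45 min were 4.44 ± 0.97 for Dnajb1, 2.41 ± 0.81 for Bag3, 1.62 ± 0.88 for Dnaja1, 1.38 ± 0.86 for Hsf2 and 0.25 ± 0.65 for Bag1. At or below 4% those of 405 min from control were 1.55 ± 0.64 for Dnaja1, 0.51 ± 0.82 for Hsf2, 0.23 ± 0.74 for Dnajb1, -0.21 ± 0.88 for Bag3 and -0.33 ± 1.02 for Bag1. Above 4% Dnajb1 held 18.8 and 20.5 CPM at 45 min, 82.4 and 97.5 CPM at 135 min, and 89.5 to 797 CPM at 405 min. Like Hspa1b it was higher at 135 than at 45 min. Its 135 and 405 min ranges overlapped, however, whereas those of Hspa1b did not. In replicate 2 at 405 min Dnajb1 held 49.4 CPM, inside its control range of 32.4 to 52.0 CPM, so it did not share the Hspa1b value of that library. In that class none of the 9 cycle genes tested was called at 405 min by edgeR's quasi-likelihood test (0.0239% of genes), and Dnaja1 alone had an unadjusted p under 0.05 in the higher direction (0.215% of genes).

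Of 8 Hsp70 relatives outside this set, 4 were tested over all libraries and none was called by edgeR's quasi-likelihood test at 405 min (0% of genes). Hspa5 (BiP), the Hsp70 of the endoplasmic reticulum, differed from control by 4.28 ± 1.49 on the log2 scale, and Hspa9 (mortalin), that of mitochondria, by 4.02 ± 1.44, both with an unadjusted p under 0.05 (14.5% of genes in the higher direction). Hspa12a and Hspa13 differed by -1.09 ± 1.03 and -0.34 ± 0.82. Within the libraries above 4% the values of 405 against 45 min were 0.81 ± 0.81 for Hspa5 and -0.38 ± 0.88 for Hspa9, beside 5.74 ± 1.27 for Hspa1b, and at or below 4% those of 405 min from control were 1.04 ± 0.81 and 1.54 ± 0.82. Hspa5 held 406 and 566 CPM at 45 min and 229 to 1386 CPM at 405 min above 4%, with overlapping ranges, and 23.6 to 70.5 CPM in the controls.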

How the data were processed

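RNA was sequenced from 16 libraries of NIH3T3 cells, 4 per group. Per the study's methods, poly(A) RNA was sequenced on an Illumina instrument and read against RefSeq on the mm9 assembly, while the submitters' processing notes name mm10. Each deposited table gave estimated fragment counts per gene (expected counts, 97.9% to 99.4% whole numbers), which the authors deposited without normalization, and FPKM, which the authors deposited scaled by transcript length and between libraries in a way not described in the sources used here. Fragment counts were rounded and CPM was computed as fragments per 1000000 fragments of the library. FPKM served only to compare levels between genes.

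In the file of 1 library, 27 symbols had turned into dates and were restored from the row order shared with the others. The 7 members and all gene lists were chosen with earlier results of these data known. Groups came from the sample titles, and nothing in the labels says that replicates were separate cultures, so that p-values measure the spread between these libraries.

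Genes with at least 1 fragment in every library of a fit were tested with edgeR 4.0.16 (R 4.3.3) by the quasi-likelihood test with TMM factors, 1 mean per group and Benjamini-Hochberg adjustment over all genes tested. A gene was called at an adjusted p under 0.05. Fits were made on all 16 libraries, on the 7 with a ribosomal protein share over 4% (symbols starting with Rpl or Rps and a digit, 97 in all, of which 10 are S6 kinase genes) and on the other 9. The fit was first run on simulated counts, which had no library classes. How many changed genes it finds at the spread of these libraries is not reported here. That spread was wide over all 16 libraries (coefficient of variation 79.1%), so a lack of calls does not show a lack of change. Alternatives were RLE factors, no filter, filterByExpr, DESeq2 1.42.0, a replicate block, only the 2 groups compared, Hspa1a and Hspa1b summed, a 6% boundary and leaving out each library. Leaving out libraries in the unfiltered fit of Hspa1a was added after seeing the data. All members were named, as were the 6 cycle genes with the largest difference at 405 min against control, the detected family genes tested there, and the 5 genes most correlated with Hspa1b and Hspa8. Intervals and limits from a count of 0 (3 fragments) cover counting error only. Promoters came from RefSeq (GRCm38.p6) and gene positions from the GENCODE annotation of NCBIM37. The 2 builds were not mixed.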

Additional observations from a re-analysis of the deposited data

How the results depend on the processing

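Hspa1b at 405 min against control at or below 4% stayed past the threshold with RLE factors, no filter, filterByExpr, DESeq2 and each control left out, but its single treated library could not be left out. Over 54 differences of the members in the main fit and 609 settings, 571 kept direction and side of the threshold, 26 changed sign, 12 passed only under an alternative and 0 were lost. Almost none of the 54 had passed in the main fit, so almost none could be lost. With the unfiltered differences of Hspa1a added, 60 differences and 647 settings gave 30 changes of sign and 4 lost calls, all of Hspa1a. All 12 that passed only under an alternative were under DESeq2, and the cause was not tested. Over all libraries DESeq2 called 2, 1 and 5 members higher at 45, 135 and 405 min against control (4.45%, 0.159% and 6.98% of genes). It called 1 higher at 405 against 45 min, where 3 of 5030 genes were called higher. Above 4% it called 1 at 135 (0.0349% of genes) and 2 at 405 (0.476% of genes) against 45 min. With no filter 1 member, Hspa1a, was called above 4% at 405 min against 45 (0.0449% of genes) and against 135 min (0.0180% of genes). With filterByExpr 1 member was called against 45 min, where 2 of 19277 genes were called higher.

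Hspa2 changed sign at 45 min against control over all libraries (0.026 with no filter, 0.024 with filterByExpr) and at 405 against 135 min above 4% (-0.10 with no filter, -0.11 with filterByExpr, -0.38 with the 6% boundary). Hspa4l did so at 135 against 45 min above 4% (0.037 with RLE factors and with DESeq2). Leaving out each library gave signs that changed for Hspa2 at 135 min (-0.021 to 0.68) and 405 min (-0.28 to 0.47) against control over all libraries. Above 4% it did so for Hspa8 (-1.0 to 0.94) and Hspa4l (-0.17 to 0.10) at 135 against 45 min, Hspa4 at 405 against 45 min (-0.11 to 0.63) and Hspa2 at 405 against 135 min (-0.38 to 0.30). Among the other libraries it did so for Hspa1b (-1.30 to 0.68) and Hspa2 (-1.69 to 0.15) at 45 min, Hspa4 (-0.27 to 0.19) and Hspa2 (-0.39 to 0.93) at 135 min, and Hspa2 at 405 min (-0.21 to 0.42). Unfiltered Hspa1a ran from -0.30 to 0.92 at 45 min against control over all libraries, and above 4% from 2.002 to 9.22 at 135 and 6.09 to 13.71 at 405 against 45 min, and from 2.49 to 5.04 at 405 against 135 min.

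With a replicate block 0 members were called in the 6 contrasts over all libraries, where 0 of 5030 genes were called in each. Replicate numbers were not treated as pairs, since deviations of same-numbered libraries correlated above 0.1 in 14 of 24 pairs (r -0.757 to 0.585) and 5 of 16 libraries were closest to their own number. Hspa1a held 0 to 16 fragments in each control.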

Other observations

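The genes whose levels, as log2(CPM + 1), tracked Hspa1b most closely over the 16 libraries were Hsp90aa1 (Pearson r = 0.926), Snhg5 (0.888), Dnaja1 (0.886), Swt1 (0.861) and Ppap2b (0.858). Hsp90aa1 encodes the inducible cytosolic Hsp90 and Dnaja1 a J-domain protein. Those that tracked Hspa8 most closely were Nid1 (0.969), AI314180 (0.955), Prrc2c (0.951), Calu (0.948) and Rpl19 (0.947), and the last is itself a ribosomal protein gene of the kind that set the library classes. The libraries of one class share their depth and composition, so these coefficients are descriptions only.

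Over the 7 libraries above 4%, the genes nearest to Hspa1b were Procr (r = 0.969), Hsp90aa1 (0.965), Jag1 (0.957), 1500012F01Rik (0.952) and Itpripl2 (0.948), so Hsp90aa1 was near it in both sets of libraries. Those nearest to Hspa8 were Nupr1 (0.996), Imp4 (0.995), Dhx38 (0.983), Ubb (0.982) and Larp1 (0.980), and Ubb is a polyubiquitin gene. Among the members, Hspa8 was close to Hsph1 in both sets (0.960 over 16 libraries and 0.947 over 7), whereas Hspa1b and Hspa8 were close over 16 libraries (0.795) and not over 7 (0.285). Hsp90aa1 itself held 84.4 to 443 CPM in the controls, 2659 and 3193 CPM at 45 min above 4%, 8758 and 4821 CPM at 135 min, and 11740, 14504 and 19656 CPM at 405 min.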
